A study of Mus musculus with 7 samples.

Results

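The Nduf genes encode the nuclear subunits of respiratory complex I and the factors that assemble it. They were taken as every row of the expression table whose symbol begins with Nduf, which gave 45 of 23420 rows. By the role each is known for, 7 encode core subunits, 29 encode accessory subunits, 7 encode assembly factors (Ndufaf1 to Ndufaf7), and 2, Ndufa4 and Ndufa4l2, bear the family name without belonging to complex I. The table has 0 rows whose name begins with mt-, so the core subunits encoded by mitochondrial DNA were not analysed here. Ndufb1 and Ndufaf8 were likewise not analysed here under those names.

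Bulk RNA sequencing of total RNA compared hearts of 4 control mice, Ctla4+/+;Pdcd1-/-, with hearts of 3 mice labelled as ICI-myocarditis (myocarditis of the kind caused by immune checkpoint inhibitors), Ctla4+/-;Pdcd1-/-. All 7 mice therefore lacked Pdcd1, which encodes the T cell checkpoint receptor PD-1, and the groups differed in having 2 copies or 1 copy of Ctla4, which encodes the checkpoint receptor CTLA-4. The mice were 3 to 6 weeks old and none had been treated. The tissue is given as whole heart in one label and as cardiac ventricle in the extraction protocol. The labels name the alleles alone and no cell type to which their loss was restricted. Neither litter nor sex nor day of preparation is given, and nothing says that the libraries came from separate litters, so the p-values measure only the spread between these libraries.

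Complex I takes electrons from NADH, passes them along a flavin and a chain of iron-sulphur clusters to ubiquinone, and pumps protons across the inner mitochondrial membrane. The core subunits hold this machinery, with an N module that oxidizes NADH, a Q module that reduces ubiquinone, and a membrane arm, the P module, that pumps protons. Accessory subunits surround the core and stabilize it, and assembly factors join the modules and then leave. Heart muscle is among the tissues richest in mitochondria and draws most of its ATP from the respiratory chain.

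Values are normalised counts, that is, read counts divided by a size factor for each library, and recovered depths ran from 20931730 to 39037176 reads per library. The cardiac muscle transcript Myh6 was at 700585 to 1196030 normalised counts in controls and at 402804 to 669922 in ICI-myocarditis, so the labelled tissue showed its defining marker. Ctla4 was at 29.2 to 113 normalised counts in controls and 251 to 373 in ICI-myocarditis. Pdcd1 was at 2.50 to 244 and at 1096 to 1481 normalised counts. These are sums over whole genes and the extent of the deletions is not given, so they do not check the genotypes. Control 2 stood apart from the other controls, with a summed T cell marker level of 1882 normalised counts against 188 to 317.

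Of the 45 Nduf genes, 44 reached the level needed for a test (at least 10 normalised counts in at least 3 libraries). Ndufa5, an accessory subunit of the Q module, and Ndufa13, an accessory subunit of the membrane arm also known as GRIM-19, were lower in ICI-myocarditis hearts at an adjusted p under 0.05. The test was limma on log2(normalised count + 1) and p-values were adjusted by Benjamini-Hochberg over 15258 genes. These 2 genes are 4.55% of the 44, beside 4.00% of all tested genes called lower (15.7% in either direction). The count of Nduf genes called higher was 0, beside 11.7% of all tested genes. The share of Nduf genes called was thus near the background. Every one of the 44 fold changes was nevertheless below 0, beside 51.9% of all tested genes, and the median log2 fold change was -0.85 against -0.02 over all tested genes. An unadjusted p under 0.05 with a lower level was found for 12 of the 44 (27.3%, beside 12.4% of all tested genes). All 3 ICI-myocarditis libraries lay below all 4 controls for 6 of the 44 (13.6%, beside 11.3%), among them Ndufa5, Ndufa13 and Ndufa1, and above all controls for 0 of the 44, beside 17.3%. Less RNA per heart muscle cell and fewer heart muscle cells cannot be told apart in bulk tissue.

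**Figure D1:**
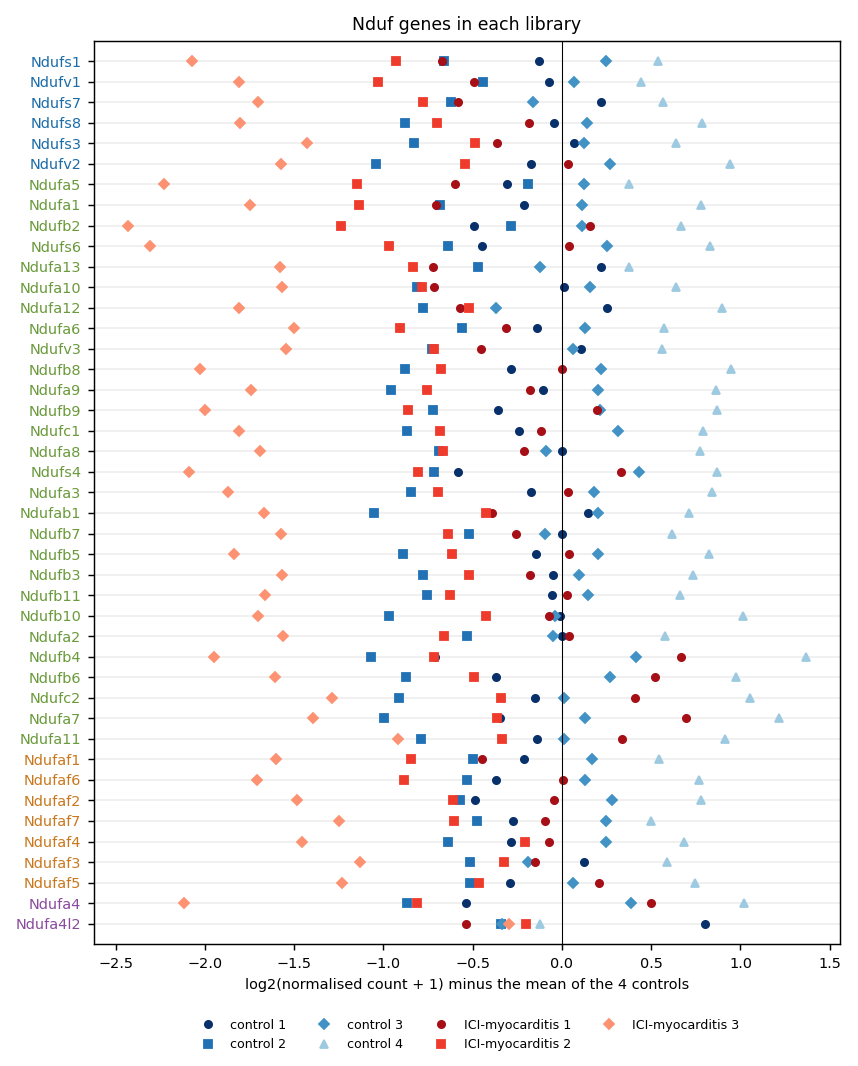
Each row is 1 of 43 tested Nduf genes and each point is 1 library, placed by log2(normalised count + 1) minus the mean of the 4 controls (name colours: blue core, green accessory, orange assembly, purple Ndufa4 pair). ICI-myocarditis 3 is the lowest library and control 4 the highest for every gene shown but Ndufa4l2, while ICI-myocarditis 1 lies within the range of the controls for most.

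The libraries kept nearly the same order for almost every member. ICI-myocarditis 3 was the lowest of the 7 libraries for 43 genes and control 4 the highest for 43, with Ndufa4l2 the exception to both. ICI-myocarditis 1 was above ICI-myocarditis 2, and that above ICI-myocarditis 3, for 42 genes. Among controls, control 2 was the lowest for 42. ICI-myocarditis 3 was below all controls for 43 genes, ICI-myocarditis 2 for 18 and ICI-myocarditis 1 for 7. Summed over the 45 rows, Nduf transcripts took 0.921%, 0.792%, 1.24% and 1.48% of all normalised counts in controls 1 to 4 (1.11% ± 0.313, SD, n = 4). In ICI-myocarditis 1 to 3 they took 1.06%, 0.693% and 0.362% (0.704% ± 0.348, SD, n = 3). The first of these shares lies among the controls, and the other two lie below every control. Because the 44 genes move together across libraries, their counts and common direction are not 44 separate observations. Without ICI-myocarditis 3 the median fold change of the 44 was -0.38 with 40 below 0, and without ICI-myocarditis 1 it was -1.19 with 44 below 0.

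Among the core subunits, none passed the threshold, and the median log2 fold change of the 7 was -1.02. Ndufs1, the largest iron-sulphur subunit of the N module, was at 17734, 12252, 22991 and 28119.7 normalised counts in controls 1 to 4 and at 12145, 10167 and 4611 in ICI-myocarditis 1 to 3. ICI-myocarditis 1 lay just under control 2, so the groups were apart by a narrow margin. This was a log2 fold change of -1.22 (limma, SE 0.407, adjusted p = 0.0739). Ndufv1, which binds the flavin that accepts electrons from NADH, was at 22354, 17350.2, 24721 and 32047 in controls and at 16757, 11515 and 6726 in ICI-myocarditis. Here too the groups did not overlap, with control 2 and ICI-myocarditis 1 closest. In log2 terms the difference was -1.11 (limma, SE 0.359, adjusted p = 0.0676).

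Ndufs7, which carries the last iron-sulphur cluster before ubiquinone, was at 10653, 5949.5, 8174 and 13570.0 normalised counts in controls 1 to 4 and at 6126, 5342 and 2818 in ICI-myocarditis 1 to 3. ICI-myocarditis 1 was above control 2, so the groups overlapped. The log2 fold change was -1.02 (limma, SE 0.362, adjusted p = 0.0907). Ndufs8, an iron-sulphur subunit, was at 6068, 3415, 6914 and 10781 in controls and at 5519, 3864 and 1793 in ICI-myocarditis (log2 fold change -0.90, limma, SE 0.455, adjusted p = 0.224). Ndufs3, a scaffold of the Q module, was at 6189.5, 3326, 6429.6 and 9175 in controls and at 4582, 4213 and 2191 in ICI-myocarditis (log2 fold change -0.76, limma, SE 0.380, adjusted p = 0.217). For both, ICI-myocarditis 1 and 2 lay above control 2, and ICI-myocarditis 3 lay below every control. Ndufv2, the iron-sulphur partner of Ndufv1, had the smallest core difference. It was at 10577, 5808, 14408 and 22901 normalised counts in controls and at 12227, 8194 and 4011 in ICI-myocarditis, and only ICI-myocarditis 3 was below every control. Its log2 fold change was -0.69 (limma, SE 0.505, adjusted p = 0.401).

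The median log2 fold change of the 28 tested accessory subunits was -0.86. Ndufa5 had the largest difference of all Nduf genes and the lowest p. It was at 6638, 7194, 8972 and 10661 normalised counts in controls 1 to 4 and at 5423, 3713 and 1749.8 in ICI-myocarditis 1 to 3. All ICI-myocarditis libraries lay below all controls, and unlike most members its lowest control was control 1. Its mean fell from 8366 ± 1825 (SD, n = 4) to 3628 ± 1838 (SD, n = 3), a log2 fold change of -1.33 (limma, SE 0.373, adjusted p = 0.0416). The gene lies at chr6:24518666-24528013 on the minus strand of GRCm38.

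Ndufa13 was at 11540.2, 7157, 9121 and 12886 normalised counts in controls 1 to 4 and at 6011, 5557 and 3328 in ICI-myocarditis 1 to 3. The groups did not overlap, and control 2 was again the control nearest to the ICI-myocarditis libraries. Its mean fell from 10176 ± 2545 (SD, n = 4) to 4965 ± 1436 (SD, n = 3), a log2 fold change of -1.05 (limma, SE 0.302, adjusted p = 0.0460). The gene lies at chr8:69894180-69902558 on the minus strand of GRCm38, and 30.0% of its exon bases overlap Tssk6 on the opposite strand. Whether the counting used strand is not known, but Tssk6 was at only 10.1 to 48.1 normalised counts.

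Both calls depended on single libraries. The Ndufa5 call was lost without ICI-myocarditis 2, ICI-myocarditis 3, control 1, control 3 or control 4 (limma adjusted p = 0.0885, 0.142, 0.0727, 0.110 and 0.0796). The Ndufa13 call was lost without ICI-myocarditis 1, 2 or 3 or control 1, 3 or 4 (limma adjusted p = 0.0601, 0.0911, 0.201, 0.114, 0.100 and 0.0859). Leaving out control 2 had the opposite effect, with 13 Nduf genes called lower (29.5%, beside 7.19% of all tested genes). On the recovered reads edgeR called 0 members (12 at an unadjusted p under 0.05), beside 3.49% of all tested genes called lower, DESeq2 called 9 lower (20.5%, beside 7.35% of all genes it tested) and limma-voom with quality weights called 11 lower (25.0%, beside 9.95%). The authors' deposited table holds 9 of 44 members at an adjusted p under 0.05, all lower, beside 7.35% of all its rows with an adjusted p. Its member fold changes equal those of DESeq2 on the recovered reads (Ndufa5 -1.21 in both), so its count does not stand apart from that of DESeq2.

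Ndufa1, a small X-linked subunit at the foot of the membrane arm, missed the threshold narrowly. It was at 3287, 2369.7, 4118 and 6529.8 normalised counts in controls 1 to 4 and at 2329.7, 1733 and 1135 in ICI-myocarditis 1 to 3. The groups were apart, with ICI-myocarditis 1 just under control 2. This was a log2 fold change of -1.20 (limma, SE 0.363, adjusted p = 0.0545). Ndufb2, of the distal membrane arm, had a log2 fold change of -1.17 (limma, SE 0.541, adjusted p = 0.182) with overlapping groups. Its ICI-myocarditis values were 7074, 2694 and 1177 normalised counts, a spread wider than that of its controls, which were at 4508, 5203, 6875 and 10072.

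The smallest accessory differences were those of Ndufa11 and Ndufa7. Ndufa11, which sits where the membrane arm meets complex III in supercomplexes, was at 6416, 4077, 7117 and 13314 normalised counts in controls and at 8914, 5589 and 3732 in ICI-myocarditis. Only ICI-myocarditis 3 was below every control. Its log2 fold change was -0.31 (limma, SE 0.423, adjusted p = 0.680). Ndufa7, a subunit of the peripheral arm, was at 3116, 1989.8, 4346 and 9215 normalised counts in controls and at 6431, 3090.1 and 1507 in ICI-myocarditis, with ICI-myocarditis 1 above 3 of the controls. Its log2 fold change was -0.35 (limma, SE 0.576, adjusted p = 0.733). The estimates for both came out above 0 when ICI-myocarditis 3 was left out (0.00043 and 0.17).

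**Figure D2:**
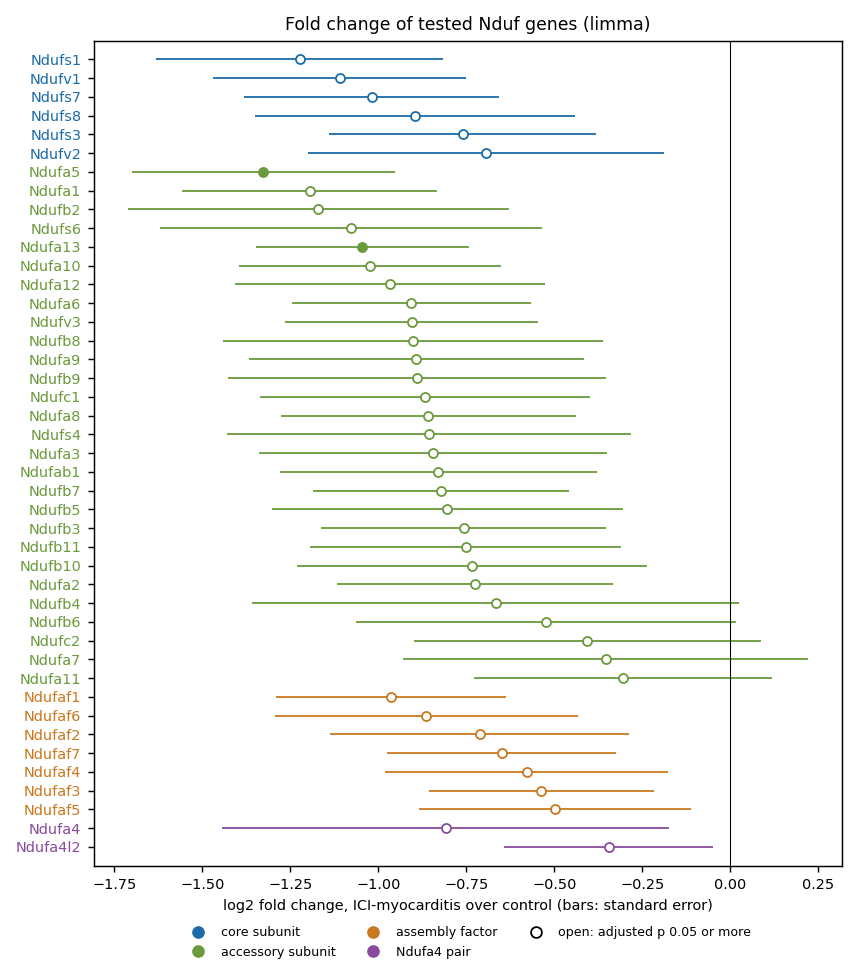
Log2 fold change of ICI-myocarditis over control for 43 tested Nduf genes, with bars of 1 standard error and colours for role. Every estimate lies below 0, from -0.31 for Ndufa11 to -1.33 for Ndufa5, and only Ndufa5 and Ndufa13 (filled points) had a limma adjusted p under 0.05.

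Core and accessory subunits together were placed by module. Median log2 fold changes were -0.94 for the N module (8 genes) and -1.02 for the Q module (5 genes). They were -0.87 for the proximal membrane arm (7 tested genes) and -0.78 for the distal membrane arm (10 genes). Ndufa6, Ndufa7, Ndufa9, Ndufa11 and Ndufab1 were placed in no module and are left out of these medians. Among them are Ndufa11 (-0.31) and Ndufa7 (-0.35), the accessory subunits with the smallest differences. Across this series of modules calls numbered 0, 1, 1 and 0 in the order given, beside 4.00% of all tested genes called lower. The 2 ends of this series differed mainly in ICI-myocarditis 1. In that library the median log2 difference from the control mean was -0.58 for the Q module and 0.03 for the distal membrane arm, while in ICI-myocarditis 3 the medians were -1.81 and -1.77. Shorter Nduf transcripts tended to run higher in ICI-myocarditis 1 (Spearman's rho -0.38 between transcript length and the difference from the control mean). Neither the difference between modules nor the part of length in it was tested.

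Ndufs5, an accessory subunit of the membrane arm at chr4:123712710-123718202 on the minus strand of GRCm38, was the only member too low to be tested. It was at 1.01, 0, 1.12 and 0 normalised counts in controls 1 to 4 and at 0, 0 and 1.53 in ICI-myocarditis 1 to 3, which is at most 2 reads in any library. Of the 75-base stretches of its transcript, 27.8% also occur in transcripts of other genes, with the largest share in BC002163, a processed copy. BC002163, named here after its values were seen, was at 108, 102, 123 and 134 normalised counts in controls and at 56.3, 80.4 and 46.6 in ICI-myocarditis. The part of shared sequence in the Ndufs5 counts was not tested. Shared stretches of 20.3% to 35.2% (either strand) were also found for Ndufb4, Ndufb6, Ndufs3, Ndufab1, Ndufa13, Ndufa12, Ndufb2 and Ndufb9. For Ndufa13, Ndufb6, Ndufb2 and Ndufb9 the gene sharing most (Tssk6, Smim27, Gm42420 and Gm49356) overlaps them at the same place. The counts of all genes with shared stretches are less certain than those of the rest.

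None of the 7 assembly factors passed the threshold, and their median log2 fold change was -0.65. Ndufaf1, which builds the membrane arm, was at 1069, 876, 1391 and 1808 normalised counts in controls 1 to 4 and at 909.6, 688 and 408 in ICI-myocarditis 1 to 3. Only ICI-myocarditis 1 reached into the range of the controls, just above control 2. In log2 terms the difference was -0.96 (limma, SE 0.326, adjusted p = 0.0786).

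Ndufaf5, which modifies Ndufs7 during assembly, had the smallest difference of the assembly factors. It was at 474, 405, 604 and 972 normalised counts in controls and at 669, 419 and 246 in ICI-myocarditis. ICI-myocarditis 1 was above 3 of the 4 controls. The log2 fold change was -0.50 (limma, SE 0.387, adjusted p = 0.436). Ndufaf3 and Ndufaf4 bind each other and act on the Q module. Ndufaf3 was at 774, 497, 623 and 1071 normalised counts in controls and at 640.5, 567 and 324 in ICI-myocarditis. Ndufaf4 was at 1301, 1019, 1884 and 2549 in controls and at 1511, 1373 and 578 in ICI-myocarditis. Only ICI-myocarditis 3 was below every control for either gene. They had log2 fold changes of -0.54 (limma, SE 0.319, adjusted p = 0.298) and -0.58 (limma, SE 0.402, adjusted p = 0.376). Ndufaf6, needed for the early membrane arm, was at 452, 405, 639.8 and 997 in controls and at 586, 316 and 178 in ICI-myocarditis. Ndufaf7, a methyltransferase that acts early in assembly, was at 657, 571, 942 and 1124 in controls and at 743, 522 and 334 in ICI-myocarditis. For both, ICI-myocarditis 2 and 3 were below every control and ICI-myocarditis 1 was not. Their log2 fold changes were -0.86 (limma, SE 0.430, adjusted p = 0.215) and -0.65 (limma, SE 0.325, adjusted p = 0.217). The groups overlapped for all 7.

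Ndufaf2 holds the place of the subunit Ndufa12 until late in assembly and is related to it in sequence. Ndufaf2 was at 216, 204, 367 and 520.5 normalised counts in controls 1 to 4 and at 294, 198 and 108 in ICI-myocarditis 1 to 3, with a log2 fold change of -0.71 (limma, SE 0.424, adjusted p = 0.299). Ndufa12 was at 3610.5, 1769, 2348 and 5649 in controls and at 2045, 2113 and 865 in ICI-myocarditis, with a log2 fold change of -0.97 (limma, SE 0.440, adjusted p = 0.177). The log2 ratio of Ndufaf2 to Ndufa12 was -3.32 ± 0.58 (SD, n = 4) for controls, against -3.07 ± 0.31 for ICI-myocarditis (SD, n = 3). The difference of 0.25 was within the spread of libraries (exact two-sided permutation p = 0.571, 0.6 when adjusted over the 2 ratios tested, smallest possible p 0.0286). Of the exon bases of Ndufaf2, 65.6% overlap a transcript on the opposite strand.

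Ndufa4 is a subunit of cytochrome c oxidase (complex IV) that was once assigned to complex I, and Ndufa4l2 is its paralogue, known to be induced in hypoxia. Ndufa4 was at 12734, 10149, 24174 and 37603 normalised counts in controls 1 to 4 and at 26194, 10552 and 4269 in ICI-myocarditis 1 to 3. ICI-myocarditis 1 was above 3 of the controls and ICI-myocarditis 3 below all. This was a log2 fold change of -0.81 (limma, SE 0.636, adjusted p = 0.441), the widest standard error but 1 among members. Ndufa4l2 was at 744, 337, 338 and 392 in controls and at 294, 372 and 347 in ICI-myocarditis. Only control 1 stood clear of the rest, and ICI-myocarditis 1 was the lowest library. In log2 terms the difference was -0.35 (limma, SE 0.297, adjusted p = 0.484).

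The log2 ratio of Ndufa4l2 to Ndufa4 ran from -6.58 to -4.10 in controls and from -6.47 to -3.62 in ICI-myocarditis. Means were -5.44 ± 1.14 (SD, n = 4) and -4.97 ± 1.43 (SD, n = 3), a difference of 0.46 that was smaller than the spread in either group (exact two-sided permutation p = 0.6, 0.6 when adjusted over the 2 ratios tested). Without ICI-myocarditis 3 the difference was -0.21, so its sign rested on that library.

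Levels were compared between genes per kilobase of 1 transcript each. In controls the core subunits had a median of 7910 normalised counts per kilobase, and the lowest was Ndufs3 at 6004. The tested accessory subunits were at 3013 (Ndufa12) to 28571 (Ndufb9), with a median of 9206. The assembly factors were at 465 (Ndufaf4) to 886 (Ndufaf1), with a median of 499. The assembly factor with the highest level thus lay below the tested structural subunit with the lowest. In ICI-myocarditis the medians per kilobase were 4799, 5077 and 333 in the same order. The assembly factors, at 295 to 461, again lay below all tested structural subunits, at 1508 to 16943. Ndufa4 had the highest level of all tested members, at 46825 ± 27742 normalised counts per kilobase for controls (SD, n = 4), against 30247 ± 24979 for ICI-myocarditis (SD, n = 3). Ndufa4l2 was at 485 ± 210 and 361 ± 42.7, among the assembly factors.

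**Figure D3:**
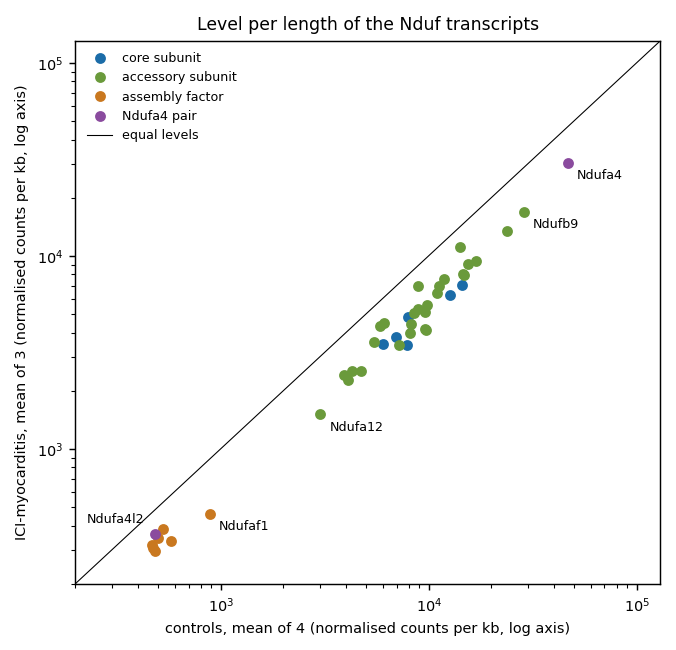
Mean normalised counts per kilobase of transcript in the 4 controls (x, log axis) and in the 3 ICI-myocarditis hearts (y, log axis) for 43 tested Nduf genes, coloured by role, with the line of equal levels. All points lie under the line, and the assembly factors (465 to 886 in controls) form a group below the core and accessory subunits (3013 to 28571).

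Several marker lists differed between the same groups. Of 12 cardiomyocyte markers, 0 were called by limma (2 at an unadjusted p under 0.05) and 12 had a log2 fold change below 0. Their median log2 fold change was -0.76. The summed level was 2663560 to 5491640 normalised counts in controls and 1976130 to 3173170 in ICI-myocarditis. Of 9 tested T cell markers 9 rose, with sums of 188 to 1882 against 7560 to 11522. Of 9 tested macrophage markers 8 rose, with sums of 14729 to 19408 against 54869 to 83462. Of 8 fibroblast markers 4 rose (54634 to 86818 against 145561 to 208232), of 8 endothelial markers 4 fell (31639 to 81190 against 23290 to 30024), and of 9 pericyte and smooth muscle markers 4 fell (59511 to 83287 against 28946 to 39172). No marker in these lists was at 0 in every library.

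Across libraries the cardiomyocyte markers followed part of the order seen for Nduf genes. Their median log2 difference from the control mean was 0.15, -0.66, -0.04 and 0.55 in controls 1 to 4 and -0.52, -0.55 and -1.22 in ICI-myocarditis 1 to 3. For the core subunits the same medians were -0.07, -0.66, 0.13 and 0.57, and then -0.49, -0.78 and -1.81. For the accessory subunits they were -0.14, -0.78, 0.13 and 0.81, and then -0.04, -0.68 and -1.70. For the assembly factors they were -0.29, -0.52, 0.17 and 0.68, and then -0.07, -0.60 and -1.46. Core subunits in ICI-myocarditis 1 thus lay close to the cardiomyocyte markers, whereas accessory subunits and assembly factors in that library lay close to the control mean. Shorter transcripts tended to run higher in that library (Spearman's rho with length -0.38 across Nduf genes, -0.23 over 14282 genes). The part of length in this contrast was not tested. ICI-myocarditis 3, the lowest library for Nduf genes, had the highest macrophage median (3.07, beside 1.77 and 2.19) and the highest T cell median (4.88, beside 4.27 and 4.29). Control 2, the lowest control for most Nduf genes, had a T cell median of 2.45, beside -1.20 to -0.44 in the other controls. Endothelial markers ran the other way among controls, with medians of 0.20, 0.42, 0.08 and -0.76 in controls 1 to 4, so that control 4, the highest library for most Nduf genes, had the lowest endothelial median of the controls and control 2 the highest. In ICI-myocarditis 1 to 3 the endothelial medians were -1.31, -0.89 and -1.06. The part of these cell types in the Nduf values was not tested.

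**Figure D4:**
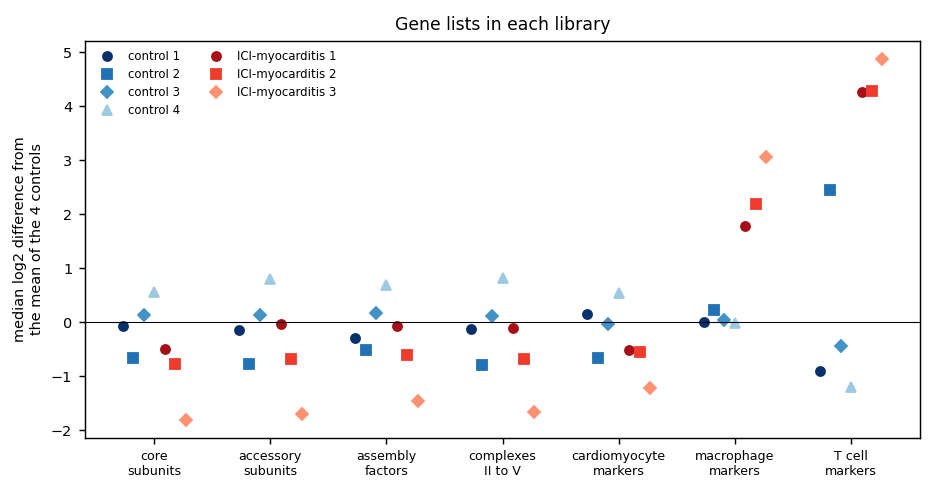
Median log2 difference from the mean of the 4 controls for 7 gene lists (x), with 1 point per library. Core subunits, accessory subunits, assembly factors, complexes II to V and cardiomyocyte markers have ICI-myocarditis 3 lowest and control 4 highest. These are at -1.81 and 0.57 for core subunits and at -1.22 and 0.55 for cardiomyocyte markers. The macrophage and T cell lists are highest in ICI-myocarditis 3.

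Other complex I assembly factors outside the Nduf names were also below 0. Of 15 listed names 11 had rows, 0 of these 11 passed the limma threshold, 11 had log2 fold changes below 0, and 6 had an unadjusted p under 0.05. Their median log2 fold change was -0.70. The lowest p belonged to Nubpl, which delivers iron-sulphur clusters to complex I. Nubpl was at 290.4, 197, 379.7 and 412 normalised counts in controls 1 to 4 and at 203, 161 and 108 in ICI-myocarditis 1 to 3, with ICI-myocarditis 1 just above control 2. Its log2 fold change was -1.01 (limma adjusted p = 0.0656). Of 38 subunits of complexes II to V, 0 were called by limma, 8 had an unadjusted p under 0.05 and 38 were below 0, with a median log2 fold change of -0.83. The median of -0.85 for the Nduf genes thus lay close to the single median of these 38 subunits, which ran from -1.36 (Cox7a1) to -0.30 (Atp5l). Medians of single complexes were not taken.

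The promoters of the members are described next, and any link between them and the shared order of libraries was not tested. RefSeq windows on GRCm38.p6, from 250 bases before to 50 bases after the RefSeq start, were found for 39 of the 45 genes, and not for the other 6. In 29 of the 39 windows the first 30 bases after the start were also in an annotated transcript of that gene (GENCODE M21). The starts of the rest are less certain. Motifs were searched on both strands by exact letters, and a match describes letters, not binding. The NRF1 motif CGCATGCGC, named for a regulator of many respiratory genes, occurred in 4 of 39 windows (10.3%), beside 3.38% of the windows of 11071 tested genes. The 4 sites, in capitals with their flanks, lie at chr17:56717693-56717721 (plus strand), chr2:36049329-36049357 (minus strand), chr4:24897961-24897989 (plus strand) and chr2:140170653-140170681 (plus strand). In Ndufa11, Ndufaf4 and Ndufaf5 the same letters also occur on the other strand, overlapping by all but 1 base.
Ndufa11: ctgcactgcgCGCATGCGCgcacgccttg
Ndufa8: tcgctggagaCGCATGCGCagatggtacc
Ndufaf4: cagatgtctgCGCATGCGCctgtgcggaa
Ndufaf5: gtcccgttggCGCATGCGCctaatagaaa

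The YY1 motif AAGATGGCG occurred in 5 of 39 windows (12.8%), those of Ndufa9, Ndufc1, Ndufs4, Ndufs6 and Ndufs7, beside 2.80% of the windows of tested genes. The 3 sites whose flanks lie within the window are printed with the motif in capitals. They lie at chr6:126849097-126849125 (minus strand), chr3:51408915-51408943 (minus strand) and chr10:80249463-80249491 (plus strand), just after the RefSeq start of each gene.
Ndufa9: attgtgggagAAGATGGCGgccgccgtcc
Ndufc1: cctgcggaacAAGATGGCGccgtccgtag
Ndufs7: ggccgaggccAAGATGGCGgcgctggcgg

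Other motifs were about as frequent as, or rarer than, in tested genes, except 2. The ERR motif AAGGTCA was in 3 of 39 windows (7.69%, beside 3.25%) and the TATA motif TATAAA in 4 (10.3%, beside 7.60%). The ETS motif CCGGAAG was in 5 (12.8%, beside 16.2%), the GC box GGGCGG in 20 (51.3%, beside 60.7%) and CCAAT in 13 (33.3%, beside 38.0%). The genes with the NRF1 letters included Ndufa11, the member with the smallest difference, and those with the YY1 letters had log2 fold changes from -1.08 (Ndufs6) to -0.86 (Ndufs4).

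Several Nduf genes had part of a neighbour read in the other direction before their start. Only exons were searched, and where each neighbour starts was not checked. For Ndufa13 the stretch searched lies within the annotated gene. An exon of a protein-coding gene on the opposite strand lay within the 250 bases before the start for 14 of 39 members (35.9%), beside 12.1% of the windows of tested genes. The stretch before the start that holds no annotated exon is printed for 4 such pairs, chosen as those whose Nduf gene is an assembly factor and Ndufv3, the last with the longest stretch, and capitals mark GGGCGG or CCAAT on either strand. The neighbours are Ercc8, Esf1, Cebpz and Wdr4. The stretches lie at chr13:108158626-108158730 (minus strand), chr2:140170565-140170645, chr17:78937067-78937134 and chr17:31519981-31520114 (plus strand).
Ndufaf2: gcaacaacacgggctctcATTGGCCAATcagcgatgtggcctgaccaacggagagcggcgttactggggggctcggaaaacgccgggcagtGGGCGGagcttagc
Ndufaf5: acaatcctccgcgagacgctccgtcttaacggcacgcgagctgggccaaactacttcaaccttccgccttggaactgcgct
Ndufaf7: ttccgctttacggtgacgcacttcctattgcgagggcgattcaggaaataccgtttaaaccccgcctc
Ndufv3: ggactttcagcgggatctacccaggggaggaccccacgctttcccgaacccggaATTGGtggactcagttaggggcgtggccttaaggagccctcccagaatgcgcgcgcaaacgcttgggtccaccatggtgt

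Fold changes of the neighbours on the opposite strand were set beside those of the Nduf genes. Of the 14 neighbours 13 were tested and 0 were called by limma, with a smallest adjusted p of 0.281, and of the 13 Nduf genes beside them 1 was called (Ndufa13). Their log2 fold changes ran from -0.46 (Mrpl36, beside Ndufs6) to 0.58 (Tssk6, beside Ndufa13), with a median of -0.21, and 4 were above 0. The 13 Nduf genes of these pairs had a median of -0.76, and in 13 of 13 pairs the neighbour had the higher fold change. Most tested genes would be higher than these members too, because the median over all tested genes was -0.02. The count of pairs is thus no trait of neighbours. The DNA repair gene Ercc8, beside Ndufaf2, was at 140.1, 154, 144 and 151 normalised counts in controls 1 to 4 and at 137, 122 and 141 in ICI-myocarditis 1 to 3. These values are nearly level, whereas Ndufaf2 ran from 108 to 520.5. Wdr4, a subunit of a tRNA methyltransferase beside Ndufv3, was at 316, 422, 257 and 251 in controls and at 392, 362 and 331 in ICI-myocarditis. Ndufv3, of the N module, was at 7658, 4285, 7413 and 10499.7 in controls and at 5199, 4323 and 2434 in ICI-myocarditis, so it was highest in the control where Wdr4 was lowest. Mrpl36, a mitochondrial ribosomal protein gene beside Ndufs6, was at 736, 447, 774 and 1194 in controls and at 611, 638 and 402 in ICI-myocarditis. Mrpl47, another such gene beside Ndufb5, was at 412, 306, 517 and 714 in controls and at 579, 383 and 272 in ICI-myocarditis. Both neighbours were lowest in ICI-myocarditis 3 and highest in control 4, as most Nduf genes were. The difference within pairs was not tested.

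**Figure D5:**
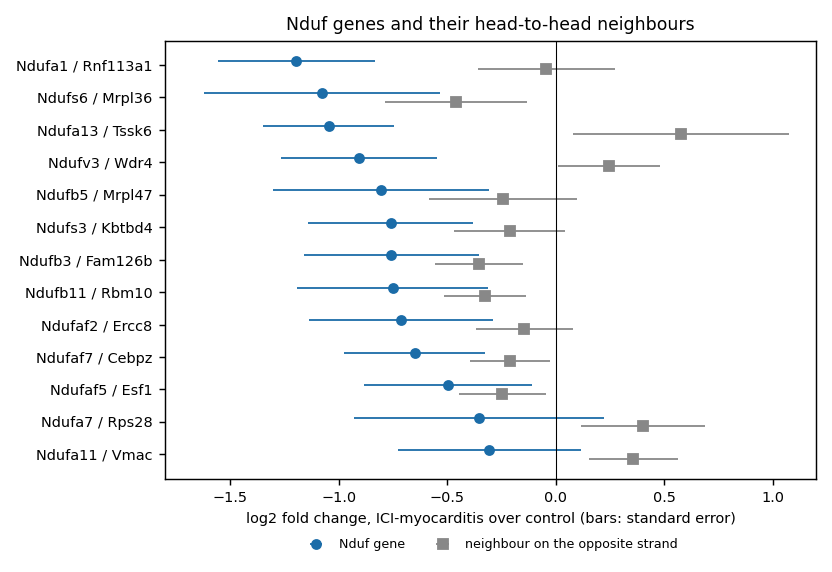
Log2 fold change of ICI-myocarditis over control, with bars of 1 standard error, for 13 Nduf genes (circles) and their neighbours (squares). Each neighbour has an exon on the opposite strand before the start of the Nduf gene, and where the neighbour itself starts was not checked. The square lies to the right of the circle in 13 of 13 pairs, as it would for most tested genes (median -0.02). The neighbours run from -0.46 (Mrpl36) to 0.58 (Tssk6).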

How the data were processed

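RNA from 7 hearts was sequenced as paired 150-base reads from a stranded total RNA kit, per the labels' protocols. Reads were processed with STAR 2.7.3 and GRCm38/mm10, per the submitters' processing notes. The counting program, annotation and use of strand are not given in the sources used here. Per library the authors deposited a signal per gene, which its values show to be read counts over a size factor. For each gene the authors also deposited a log2 fold change, its error, a score (headed only as a statistic) and the p-value, raw and adjusted. No column of other samples was present (0).

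Whole reads could be recovered from the steps of the values in every library, less surely for control 1. The test was limma 3.58.1 (R 4.3.3) on log2(value + 1), with trended, robust variance, for genes at 10 or more in at least 3 libraries, with Benjamini-Hochberg adjustment and a threshold of 0.05. The pseudocount understates changes of low genes. Alternatives included edgeR 4.0.16 and DESeq2 1.42.0 on recovered reads and leaving out each library. Ratios were tested by exact permutation over the 35 ways to divide the libraries.

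Roles, marker lists and members were chosen with earlier results of these data known. Values per library were given, by rule, for core subunits, called genes, the extremes of each role, assembly factors and the Ndufa4 pair, and values of other Nduf genes illustrate pairs. The values of 1 member are not reported here and it is left out of the plots, though it is part of the counts and medians. Gene models were GENCODE M21, with which 93.6% of tested genes had a length. Reads are not independent molecules, so counts overstate precision.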

Additional observations from a re-analysis of the deposited data

How the results depend on the processing

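With 3 and 4 libraries a group, single libraries moved the calls. Ndufs5, at 0 to 1.53 normalised counts, was too low to test, and why it was so low was not tested. Beside 2 genes called, scaling by library total gave 1 (Ndufa13, with 2.04% of all tested genes called lower) and no filter gave 1 (Ndufa5, 2.79%). With edgeR 0 members were called, beside 3.49% of all tested genes called lower, and 12 members had an unadjusted p under 0.05. DESeq2 gave 9 (20.5%, beside 7.35% of all genes it tested) and limma-voom with quality weights gave 11 (25.0%, beside 9.95%). The authors' deposited table has 9 of 44 at an adjusted p under 0.05, all lower. Its member fold changes are those of DESeq2 on the recovered reads, so it is no separate source. Leaving out single libraries gave 0 to 13, namely 13 without control 2 (29.5%, beside 7.19%), 3 without ICI-myocarditis 1 (6.82%, beside 2.23%) and 0 without any of the others, beside 1.04% to 3.55% of all tested genes. The labels do not say whether shared replicate numbers pair the libraries. Correlations of deviations from the group means were -0.27, -0.21 and -0.08 for same-numbered libraries. Those of unlike-numbered libraries ran from -0.48 to 0.45, so these few values cannot decide whether libraries were paired. A replicate block gave 0 calls, beside 2.55% of all tested genes called lower, and 4 members had an unadjusted p under 0.05. Medians by role stayed below 0 in all 16 alternatives, from -1.25 to -0.68 for core subunits, -1.19 to -0.38 for accessory subunits, -0.93 to -0.33 for assembly factors and -0.86 to -0.26 for the Ndufa4 pair. Scaling by library total moved the median of all tested genes to 0.13, and 44 of 44 Nduf genes were still below 0. Leaving out single libraries moved the fold change of Ndufa11 from -0.63 to 0.00043, of Ndufa7 from -0.88 to 0.17, of Ndufb6 from -1.05 to 0.016 and of Ndufc2 from -0.81 to 0.034, in each case lowest without ICI-myocarditis 1 and highest without ICI-myocarditis 3. Ndufa7 also came out above 0 without control 4 (0.051). The replicate block gave the same fold changes as leaving out control 4, because no ICI-myocarditis library shares the number of control 4. For fold changes the block is thus not a separate alternative among the 16. The log2 ratio of Ndufa4l2 to Ndufa4 differed by -0.21 (without ICI-myocarditis 3) to 1.21, and that of Ndufaf2 to Ndufa12 by 0.01 to 0.47. The causes were not tested. Of 704 values of single genes under alternatives, 652 kept direction and side of the threshold, mostly by staying uncalled. The 2 called genes kept their calls less often, Ndufa5 in 8 of 16 alternatives and Ndufa13 in 7 of 16.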

Other observations

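Transcript length and GC content were related to the Nduf values within libraries, as descriptions across genes, which are not independent replicates. Across the 44 tested Nduf genes, Spearman's rho between transcript length and the difference from the control mean was -0.38 in ICI-myocarditis 1 and -0.39 in control 4, beside -0.23 and -0.17 over 14282 genes, and 0.27 in control 1, beside 0.24. For GC content, rho was 0.43 in control 1 and -0.57 in control 3, beside 0.43 and -0.52 over all genes. Between the group means rho was only -0.09 for length and -0.13 for GC content.

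RefSeq lists 1810043H04Rik as an earlier name of Ndufaf8, an assembly factor. That row, named after its values were seen, was at 696, 448, 482 and 807 normalised counts in controls 1 to 4 and at 479, 417 and 266 in ICI-myocarditis 1 to 3. Its log2 fold change was -0.65 (limma, SE 0.288, adjusted p = 0.166), equal to the median of the 7 assembly factors analysed under the Nduf name. BC002163, the processed copy of Ndufs5, had a log2 fold change of -0.95 (limma, SE 0.293, adjusted p = 0.0569), with all 3 ICI-myocarditis libraries below all 4 controls.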
